A study of Mus musculus with 6 samples.

Results

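The Siglecs are cell surface lectins of the immunoglobulin superfamily that bind sialic acid, the sugar that caps many glycans of vertebrate cells. Most of them carry an immunoreceptor tyrosine-based inhibitory motif (ITIM) in the cytoplasmic tail, which recruits the phosphatases SHP-1 and SHP-2 when its tyrosine is phosphorylated by Src family kinases. Others lack such a motif and signal through an adaptor, above all DAP12, the product of *Tyrobp*, which activates the kinase SYK. On microglia the inhibitory members are known as brakes on phagocytosis and inflammation, and Siglec-H is widely used as a surface marker of microglia and of plasmacytoid dendritic cells.

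The Siglec genes *Siglech*, *Cd33*, *Siglece*, *Siglecg*, *Siglec1* and *Cd22*, were taken by gene symbol from the expression tables, and all 6 were found among the 35237 genes of the FPKM table and among the 36536 entries of the ALEXA-Seq table. RNA-Seq had been performed on 3 sets of bone marrow monocytes (BMDM; CD11b+ CD45high CD115+ Ly6G- cells) and 3 sets of brainstem microglia (BSM; CD11b+ CD45low CD115low Ly6G- cells), each sorted by flow cytometry from pooled C57BL/6 mice of 6 weeks of age. By the labels, the mice of replicate 1 were male and those of replicates 2 and 3 female, in both cell types. FPKM, the fragments scaled by transcript length and by library size, allows levels to be set side by side between genes, whereas ALEXA-Seq signal has no named unit and is a second processing of the same libraries.

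The libraries carried the markers of their labels. All 8 microglia markers tested were higher in BSM, with a summed level of 720 to 807 FPKM in BSM against 17.5 to 19.5 in BMDM, and all 6 monocyte markers were higher in BMDM, with 439 to 481 FPKM against 1.10 to 1.56. The 9 granulocyte and precursor genes summed to 518 FPKM in BMDM replicate 2, against 61.1 and 102 in the other BMDM libraries and at most 0.0940 in BSM. BSM replicate 1 held 472 of the 6364 tested genes at 0, against 51 to 115 in the other libraries. By the study's RNA quality assays, the RNA of this library also had far lower integrity and concentration than that of the rest. The sum of all FPKM was 163199 to 194184 in BMDM and 68288 to 75021 in BSM. The middle gene of those tested had a log2 fold change of 0.81, toward BMDM, and of -0.226 with every library set to the same sum. In bulk RNA, fewer cells of a type and less RNA per cell cannot be told apart.

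The genes other than *Siglec1* lie on chromosome 7 (mm9 in the submitters' processing notes). *Siglecg* (50663574 to 50673728), *Cd33* (50783405 to 50788541) and *Siglece* (50906442 to 50915515) form a cluster with *Siglec5* (50606711 to 50614901), whose Ensembl identifier GENCODE M21 gives to *Siglecf*. The 4 genes of the cluster span 308805 bases. *Siglech* (63023554 to 63034818) and *Cd22* (31650848 to 31665361) lie apart from it on the same chromosome, and *Siglec1* lies on chromosome 2 (130894956 to 130912501). *Cd22* overlaps 1 annotated gene, *Gm29439*, on the opposite strand. Whether strand was used in counting is not given in the sources used here, so reads of those 2 genes cannot be told apart.

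The coding sequences separate the genes by the tail of their product. In the last 120 residues, a tyrosine motif of 6 residues (I, L, V or S, any residue, Y, any 2 residues, then I, L or V) was found in 19.4% of 20319 genes with a complete coding sequence in GENCODE M21 (GRCm38). It was found 4 times in *Cd22*, 3 times in *Siglecg*, 2 times in *Siglecf* and 1 time in *Siglece*, and was not found in *Siglech*, *Cd33* or *Siglec1*. The 18 coding bases of the match nearest the end that starts with I, L or V are shown because a motif of this form in the tail is what inhibitory Siglecs signal through. The capitals mark the tyrosine codon.
Siglece: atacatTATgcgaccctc
Siglecg: ctccacTATgctgctctc
Cd22: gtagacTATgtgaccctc
Siglecf: ctccacTATgcctccctc
The match starts 38 residues before the end of the protein in *Siglece*, 32 in *Siglecg*, 34 in *Siglecf* and 8 in *Cd22*. *Siglecg* and *Siglecf* share 15 of the 18 bases and *Siglece* and *Cd22* share 14, while the other 4 pairs share 11 to 13. Of 21 pairs among the 7 coding sequences, *Siglecg* and *Siglecf* held the longest run of identical bases (55), and *Siglech* and *Siglecf* held one of 27. No stretch of at least 100 bases in another gene's transcripts was at least 95% identical to the longest transcript of *Siglech*, *Cd33*, *Siglece*, *Siglec1* or *Cd22*. In *Siglecg* such stretches, in *Plscr2* and *Gm29791*, covered 14.5% of the transcript, so its level is less certain.

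*Siglech* and *Cd33* were the Siglec genes with the highest levels in BSM, and the 250 bases before their transcription starts (RefSeq, GRCm38.p6) are shown with the letters GGAAGT, the core recognised by many ETS family factors such as PU.1, and CACGTG, an E-box, in capitals on either strand. Of 32851 windows of the same length, 19.7% held GGAAGT and 6.0% held CACGTG.
Siglech, chr7:55767934-55768183, plus strand: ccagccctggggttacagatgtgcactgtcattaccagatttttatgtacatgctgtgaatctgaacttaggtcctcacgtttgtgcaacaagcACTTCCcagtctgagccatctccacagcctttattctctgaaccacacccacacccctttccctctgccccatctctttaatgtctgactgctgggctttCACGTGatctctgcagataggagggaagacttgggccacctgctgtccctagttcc
Cd33, chr7:43533172-43533421, minus strand: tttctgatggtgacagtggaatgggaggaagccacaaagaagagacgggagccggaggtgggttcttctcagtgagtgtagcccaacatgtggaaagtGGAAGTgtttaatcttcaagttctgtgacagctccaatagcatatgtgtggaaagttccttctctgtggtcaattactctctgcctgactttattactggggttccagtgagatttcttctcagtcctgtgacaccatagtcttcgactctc
The *Siglech* window held 1 match to each motif, with GGAAGT on the reverse strand, and the *Cd33* window held GGAAGT only. Of the 5 genes with a window (*Siglec1* has no entry), GGAAGT was present in these 2 and CACGTG in *Siglech*. The window of *Siglecf* held GGAAGT too, within a run of 16 bases, aaagtggaagtgttta, that it shares with *Cd33*. The run starts 157 bases before the start of *Cd33* and 27 bases before that of *Siglecf*. These matches describe the letters of the windows and are not evidence that a factor binds there.

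The question of the comparison was which transcripts distinguish monocytes of the marrow from resident microglia. BSM carried far more Siglec transcript than BMDM, and of a different kind. The 6 genes summed to 112, 123 and 113 FPKM in BSM replicates 1 to 3, and to 7.24, 8.09 and 6.31 FPKM in BMDM. *Siglech* made up 72.8% to 75.6% of that sum in BSM and 0.623% to 1.86% in BMDM. In BMDM the sum was shared by *Siglece* (36.4% to 42.8%), *Cd33* (28.1% to 41.3%) and *Siglecg* (16.6% to 25.2%).

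**Figure D1:**
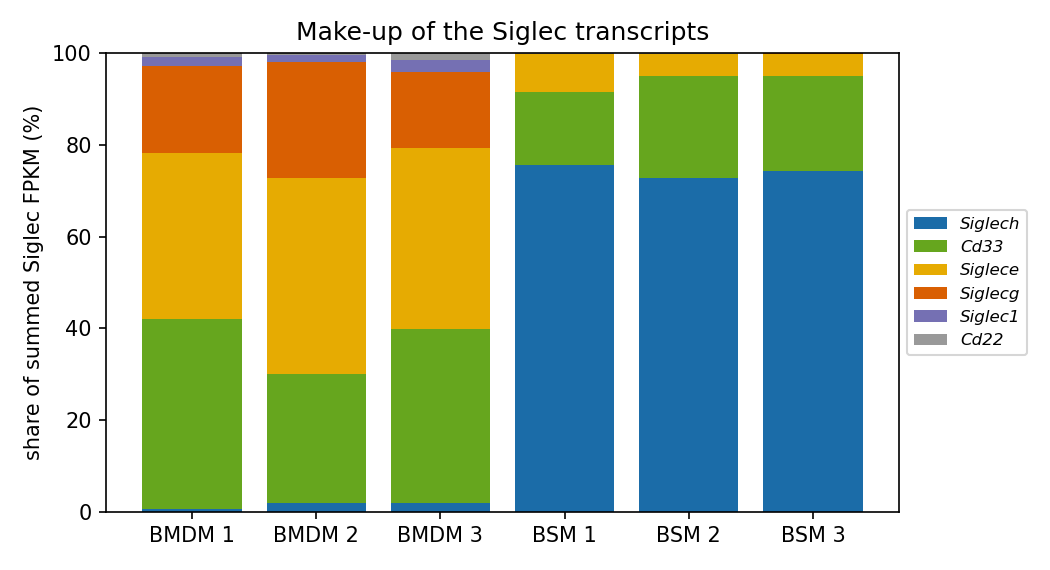
Share in percent of the summed FPKM of 6 Siglec genes (vertical axis, from 0 to 100) that each gene holds in each of the 3 BMDM and 3 BSM libraries. *Siglech* fills 72.8% to 75.6% of the BSM bars, and *Siglece*, *Cd33* and *Siglecg* fill most of the BMDM bars.

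The order of the levels differed between the cell types. In BSM, *Siglech* (86.2 ± 2.89 FPKM; SD, n = 3) stood above *Cd33* (22.9 ± 4.75), which stood above *Siglece* (6.76 ± 2.05), with no overlap between the libraries of neighbours. *Cd22* (0.205 ± 0.132), *Siglecg* (0 to 0.201) and *Siglec1* (0.0255 ± 0.0252) followed far below, and each overlapped its neighbour in that order. In BMDM, *Siglece* (2.86 ± 0.525) and *Cd33* (2.56 ± 0.384) overlapped, *Siglecg* (1.48 ± 0.508) lay below both without overlap, and *Siglec1* (0.145 ± 0.0157), *Siglech* (0.104 ± 0.0532) and *Cd22* (0.0629 ± 0.0315) followed, each overlapping its neighbour.

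**Figure D2:**
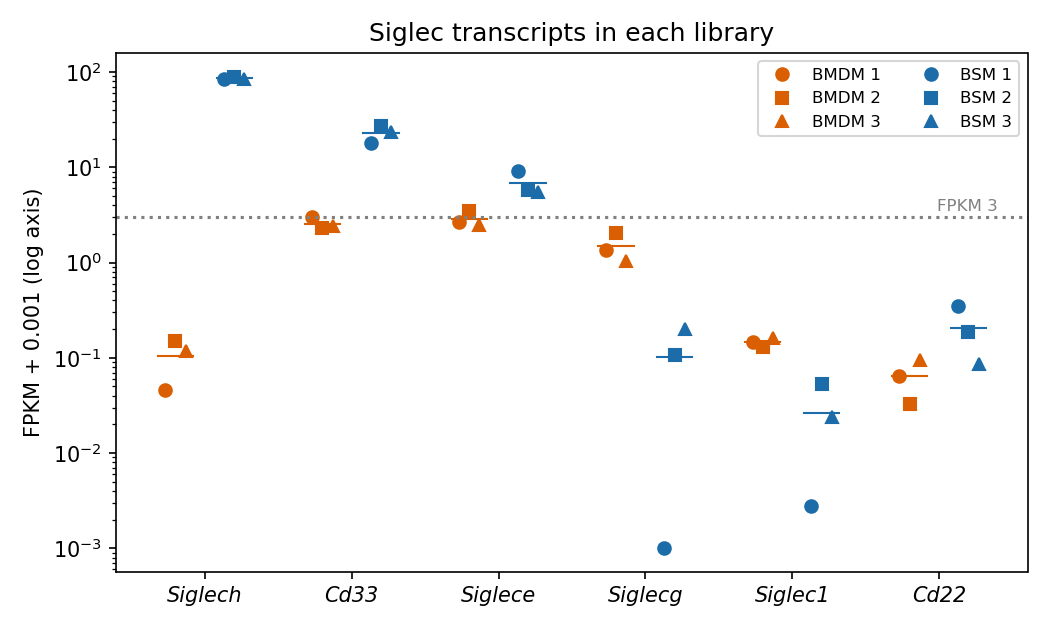
FPKM of each Siglec gene in each library, with 0.001 added so that a value of 0 can be drawn on the log axis. Orange points are BMDM, blue points are BSM, symbols are replicates 1 to 3, short lines are group means, and the dotted line is the FPKM of 3 that a gene had to reach in 1 library to be tested. The BSM points of *Siglech*, at 84.4 to 89.5 FPKM, stand highest, and those of *Cd22* overlap with BMDM.

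In the limma test across all genes, 6364 genes that reached 3 FPKM in 1 or more libraries were compared, and 3470 (54.5%) passed an adjusted p of 0.05. Of these, 2883 (45.3% of the genes tested) were higher in BMDM and 587 (9.22%) were higher in BSM. A total of 741 genes (11.6%) had all 3 BSM libraries above all 3 BMDM libraries. Of the Siglec genes, *Siglech*, *Cd33* and *Siglece* reached that FPKM, and these 3 passed the test with higher levels in BSM and without overlap. *Siglech* and *Cd33* reached it in BSM libraries only, whereas *Siglece* also reached it in BMDM replicate 2 (3.46 FPKM). The minimum thus admitted *Siglech* and *Cd33* through the group where they were high, and reaching it is no separate sign of the difference. *Siglecg*, *Siglec1* and *Cd22* lay below the minimum in every library and were tested only in the wider comparisons given with them. Log2 fold changes are BMDM minus BSM on the log2(FPKM + 1) scale, which understates changes of low genes. A 3-against-3 exact permutation test cannot go below 0.1, so p-values come from the fit across genes.

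*Siglech* encodes Siglec-H, an endocytic receptor with a short tail that pairs with DAP12. Its level was 84.7, 89.5 and 84.4 FPKM in BSM replicates 1 to 3, and 0.0451, 0.149 and 0.117 FPKM in BMDM. The BSM libraries lay within a narrow band, and the BMDM libraries were all close to 0. The log2 fold change was -6.30 ± 0.21 (SE; 95% interval -6.79 to -5.82; limma adjusted p = 2.25e-06), and the mean FPKM was 831 times higher in BSM. That ratio rests on low BMDM values and ran from 648 to 1063 when single libraries were left out. *Siglech* ranked 8 among the 6364 genes by fold change toward BSM, and 82 to 103 by level within BSM libraries.

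Plasmacytoid dendritic cells also express *Siglech*, so their markers were examined in the same libraries. The 8 genes of that list summed to 15.9, 19.7 and 17.7 FPKM in BSM and 9.26, 6.83 and 12.5 FPKM in BMDM. Most of the BSM sum came from *Tcf4* (14.0, 15.6 and 14.9 FPKM), a transcription factor with wide expression that missed the threshold (limma adjusted p = 0.0604), and *Lag3* (1.56, 3.64 and 2.52 FPKM), which was listed at 0 in BMDM and was higher in BSM (adjusted p = 0.00311). The other 6 genes of the list were too low to be tested. *Pacsin1* was 0.00844 to 0.118 FPKM in BSM and *Cox6a2* 0 to 0.280 FPKM, and both were listed at 0 in BMDM. *Ccr9* was 0.0441 to 0.322 FPKM in BSM and 0.0447 to 0.180 FPKM in BMDM. *Klk1* was listed at 0 in every library and *Ly6d* in every BSM library, and *Spib* reached 0.00282 FPKM in BSM and 0.956 FPKM in BMDM. The part of such cells in the level of *Siglech* was not tested.

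*Cd33* encodes a myeloid Siglec whose human form carries ITIMs and lies at a locus associated with Alzheimer's disease. Its level was 17.9, 27.3 and 23.3 FPKM in BSM, and 2.99, 2.28 and 2.40 FPKM in BMDM. All BSM libraries lay above all BMDM libraries, and monocytes carried the transcript at a low level in every library. The log2 fold change was -2.73 ± 0.25 (SE; 95% interval -3.30 to -2.16; limma adjusted p = 9.59e-05), and the mean FPKM was 8.94 times higher in BSM. *Cd33* ranked 122 by fold change toward BSM and 368 to 622 by level in BSM.

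*Siglece* encodes Siglec-E, an inhibitory receptor of neutrophils, monocytes and macrophages. Its level was 9.11, 5.70 and 5.45 FPKM in BSM, and 2.63, 3.46 and 2.49 FPKM in BMDM. The groups did not overlap, and BSM replicate 1, the library with low RNA integrity, stood above the other BSM libraries. The log2 fold change was -0.98 ± 0.27 (SE; 95% interval -1.60 to -0.36; limma adjusted p = 0.0161), and the mean FPKM was 2.36 times higher in BSM. The log2 fold change was -0.78 without BSM replicate 1, and the adjusted p was 0.0549 without BMDM replicate 1 and 0.0740 without BMDM replicate 3. *Siglece* is the least secure of the 3 calls, and it ranked 590 by fold change.

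The balance between these genes moved with the cell type. The FPKM of *Siglech* was 4.74, 3.27 and 3.62 times that of *Cd33* in BSM replicates 1 to 3, and 0.0151, 0.0654 and 0.0488 times in BMDM. The FPKM of *Cd33* was 1.96, 4.79 and 4.28 times that of *Siglece* in BSM, and 1.14, 0.657 and 0.964 times in BMDM. Both ratios were thus higher in every BSM library than in any BMDM library, and a scaling by 1 factor per library leaves them as they are.

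*Siglecg* encodes Siglec-G, an inhibitory receptor best known from B cells. Its level was 1.36, 2.04 and 1.05 FPKM in BMDM, and was listed at 0 in BSM replicate 1, which held many genes at 0, and at 0.105 and 0.201 FPKM in the other BSM libraries. It was the one Siglec gene with clear transcript in BMDM that was at or near 0 in BSM. Among 9637 genes that reached 1 FPKM in 1 or more libraries, 3585 (37.2%) were higher in BMDM, and *Siglecg* was among them with a log2 fold change of 1.16 ± 0.23 (SE; 95% interval 0.62 to 1.70; limma adjusted p = 0.00547). *Siglecg* reached 1 FPKM in BMDM libraries only, so this minimum admitted it through the group where it was high. The ratio of means, 14.5, ran from 9.68 without BSM replicate 1 to 28.2 without BSM replicate 3. The 8 B cell markers summed to 0.629, 8.46 and 1.75 FPKM in BMDM, highest in replicate 2, where *Siglecg* was also highest. In BMDM *Ms4a1* and *Pax5* reached at most 0.193 FPKM, whereas *Ebf1* was 5.02 FPKM in replicate 2. Another marker of the B cell list was 2.22 FPKM in replicate 2, against 0.115 and 0.397 FPKM in replicates 1 and 3. The part of B lineage or granulocyte RNA in the level of *Siglecg* was not tested.

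*Siglec1* encodes sialoadhesin, an adhesion receptor of tissue macrophages with a long extracellular region. Its level was 0.146, 0.129 and 0.160 FPKM in BMDM, and 0.00177, 0.0519 and 0.0229 FPKM in BSM. All values were low, and the BMDM libraries lay above the BSM libraries. In the comparison of all 21167 genes above 0 in at least 1 library, 18.3% passed the test and 14.9% were higher in BMDM. *Siglec1* was among the latter, with a log2 fold change of 0.16 ± 0.03 (SE; limma adjusted p = 0.0116). The call was lost without BSM replicate 3 (adjusted p = 0.0551) and with each of the 3 other scalings (adjusted p from 0.0683 to 0.427). The 8 perivascular and tissue macrophage markers summed to 1.37 to 5.52 FPKM in BSM and 2.25 to 6.12 FPKM in BMDM, and these ranges overlapped. Within that list, *Stab1* was 0.588 to 1.00 FPKM in BSM and at most 0.00695 FPKM in BMDM, and *Lyve1* reached 1.87 FPKM in BSM. In the other direction, *Vcam1* was 4.23 FPKM in BMDM replicate 2, and *Cbr2* was 0.176 to 0.386 FPKM in BMDM and at most 0.105 FPKM in BSM.

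*Cd22* encodes the inhibitory co-receptor of B cells, with several tyrosine motifs in its tail. Its level was 0.347, 0.184 and 0.0848 FPKM in BSM, and 0.0627, 0.0315 and 0.0944 FPKM in BMDM. BSM replicate 3 fell within the BMDM range, so the groups overlapped. In the same comparison of all genes above 0, the log2 fold change was -0.18 ± 0.08 (SE; 95% interval -0.38 to 0.03; limma adjusted p = 0.217). In BSM *Ms4a1* and *Pax5* were listed at 0, and the B cell list owed its sum there of 8.74 to 13.6 FPKM mostly to *Blnk*, a signalling adaptor, at 8.38 to 13.2 FPKM. Another marker of that list was 0.284 to 0.444 FPKM in BSM and 0.153 to 0.645 FPKM in BMDM. The part of B lineage RNA in the level of *Cd22* was not tested.

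The ALEXA-Seq signal of the same libraries gave the same directions. Of the 6364 genes with the highest signal, 3050 (47.9%) passed the test and 691 (10.9%) were higher in BSM. *Siglech* was 775, 831 and 793 in BSM and 0.369, 1.84 and 1.37 in BMDM, with a log2 fold change of -8.58 on the log2(signal + 1) scale (limma adjusted p = 2.38e-05). *Cd33* was 401, 558 and 460 in BSM against 53.2, 55.9 and 45.3 in BMDM. *Siglece* was 255, 137 and 118 against 59.5, 73.0 and 48.1. These 2 genes differed by -3.17 and -1.42 on that scale (limma adjusted p = 0.000101 and 0.0162).

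*Siglecg* was among the genes tested by ALEXA-Seq, at 26.0, 38.4 and 17.2 in BMDM against 0.0704, 2.43 and 3.86 in BSM. Its log2 fold change was 3.36 ± 0.72 (SE; limma adjusted p = 0.00869). *Siglec1* (1.74 to 2.98 in BMDM and 0.0471 to 0.767 in BSM) and *Cd22* (0.873 to 1.63 in BMDM and 1.53 to 7.39 in BSM) were below the genes tested. *Siglec1* again did not overlap between the groups, and *Cd22* again did. Without BMDM replicate 3, 3 of these 4 calls were left.

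**Figure D3:**
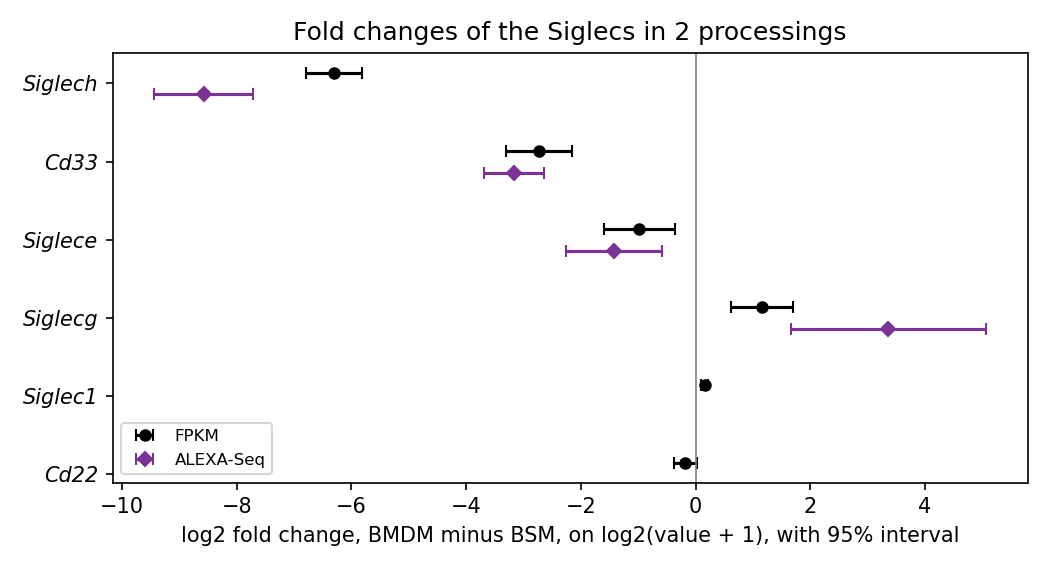
Log2 fold changes (BMDM minus BSM, horizontal axis) of the Siglec genes with 95% intervals, from FPKM (black circles) and ALEXA-Seq signal (purple diamonds). FPKM values come from the genes at or above 3 FPKM for *Siglech*, *Cd33* and *Siglece*, from those at or above 1 FPKM for *Siglecg*, and from all genes above 0 for *Siglec1* and *Cd22*, which have no ALEXA-Seq test. *Siglech*, *Cd33* and *Siglece* lie left of 0 in both.

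Of the other genes of the family, *Siglec5* was the only one that was tested. Its coding sequence holds the tyrosine motif printed for *Siglecf*. Its level was 0.0430, 1.82 and 3.05 FPKM in BSM, and 0.0965, 0.941 and 0.368 FPKM in BMDM. The groups overlapped because BSM replicate 1 was the lowest library of all, and the log2 fold change was -0.68 (limma adjusted p = 0.309). Without BSM replicate 1 it was -1.24 (adjusted p = 0.0133). *Mag*, a Siglec of myelinating cells, reached at most 0.114 FPKM.

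The genes whose profile over the 6 libraries lay nearest to each Siglec were taken by the root mean square difference of centred log2(FPKM + 1) values, as a description. For *Siglech* these were *Plxdc2* (0.144), *Pmp22* (0.150) and *F11r* (0.216), with 75.0 to 142 FPKM in BSM and at most 0.534 FPKM in BMDM. For *Cd33* they were *Tmem195* (0.113), *Pmepa1* (0.119) and *Klf12* (0.128), which unlike *Cd33* were at or near 0 in BMDM. For *Siglece* they were *A630033E08Rik* (0.0988), *Clasp2* (0.101) and *Atp6v0a2* (0.111), which all shared its highest value in BSM replicate 1.

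The partners of the Siglecs inside the cell and the genes that make, transport or remove their ligands were examined together with the 4 other genes of the family, 54 genes in all. Of these, 52 were in the table and 23 were tested. By FPKM as deposited, 11 were higher in BMDM, 5 were higher in BSM and 7 did not pass, so that 69.6% were called against 54.5% of all genes tested. The median log2 fold change was 0.25, against 0.81 over all genes tested. The split depended on scaling, with 5 higher in BMDM and 6 in BSM after upper quartile scaling, 6 and 8 after quantile normalization, and 3 and 9 with every library set to the same sum. Over all genes, 83.1% of calls were higher in BMDM as deposited, and 56.7%, 52.9% and 37.9% with those scalings. Of the 16 called genes, 7 kept their direction and passed the test under every alternative tried, namely *Fgr*, *St3gal1*, *St8sia4*, *St3gal5*, *St3gal6*, *St6gal1* and *St6galnac4*.

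Of the 7 signalling partners of activating Siglecs, 4 were tested, 3 were higher in BMDM and none was higher in BSM. Over all genes tested, 45.3% were higher in BMDM and 9.22% in BSM, and 83.1% of calls were toward BMDM. Calls toward BMDM in so short a list are therefore no result about the list. *Tyrobp*, the adaptor of Siglec-H, was 281, 395 and 347 FPKM in BMDM and 52.8, 129 and 104 FPKM in BSM (log2 fold change 1.91 ± 0.35; limma adjusted p = 0.00276). It was high in both cell types, and lower in all BSM libraries. Its FPKM was 0.624, 1.44 and 1.24 times that of *Siglech* in BSM replicates 1 to 3, and at least 2652 times in BMDM. *Syk* (log2 fold change 1.02) and *Plcg2* (1.23), which act downstream of the adaptor, were called as deposited (limma adjusted p = 0.00868 and 0.00325). *Tyrobp* was not called with every library set to the same sum, *Plcg2* and *Syk* were called under none of the 3 other scalings, and *Syk* turned to -0.15 with the same sum.

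Of the 9 kinases, phosphatases and other effectors of ITIMs, 7 were tested, 5 were higher in BMDM and 1 was higher in BSM. The shares over all genes tested were 45.3% and 9.22%, and 83.1% of all calls as deposited were toward BMDM. The lean of this short list toward BMDM is therefore no result about the list. *Fgr*, *Ptpn11* and *Cblb* reached the FPKM minimum in BMDM only, the group where they were high. *Fgr*, a Src family kinase, was 8.73, 11.6 and 9.47 FPKM in BMDM and 0.736, 0.265 and 0.110 FPKM in BSM (log2 fold change 3.01; limma adjusted p = 8.76e-05). The phosphatases *Ptpn6* (SHP-1; log2 fold change 1.93, adjusted p = 0.00314), *Ptpn11* (SHP-2; 1.02, adjusted p = 0.0156) and the ubiquitin ligase *Cblb* (1.61, adjusted p = 0.00631) were higher in BMDM as deposited, and none of these 3 passed with the same sum. *Ptpn11* passed under none of the 3 other scalings and missed the threshold without BMDM replicate 3 (adjusted p = 0.0693), and *Cblb* missed it with upper quartile scaling (adjusted p = 0.0633). *Inpp5d*, the lipid phosphatase SHIP1, was 53.2, 12.5 and 11.1 FPKM in BSM and 4.73, 7.36 and 6.17 FPKM in BMDM, with the highest value in BSM replicate 1. Its log2 fold change of -1.56 (limma adjusted p = 0.0425) became -0.87 without BSM replicate 1, and the call was lost without any 1 of the BMDM libraries (adjusted p from 0.0943 to 0.135) and with the replicate number as a block (adjusted p = 0.0507).

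Sialyltransferases, which add the sialic acid that Siglecs bind, showed changes in both directions that held under each scaling. Of 20 genes, 7 were tested, 2 were higher in BMDM and 4 were higher in BSM, beside 45.3% and 9.22% of all genes tested. *St6gal1* and *St6galnac4* reached the FPKM minimum in BSM only, and *St3gal1* and *St8sia4* in BMDM only. Each of these was thus admitted through the group where it was high, and the counts are no result about the list. *St3gal6*, which forms alpha-2,3 linkages, was 251, 95.5 and 94.2 FPKM in BSM and 2.60, 3.26 and 1.38 FPKM in BMDM (log2 fold change -5.32 ± 0.43; limma adjusted p = 5.23e-05), with BSM replicate 1 the highest library and a log2 fold change of -4.85 without it. *St3gal5*, the GM3 synthase, was 39.2, 48.2 and 42.9 FPKM in BSM and 10.2, 15.9 and 13.1 FPKM in BMDM (-1.68 ± 0.24; adjusted p = 0.000957). *St6gal1*, which forms the alpha-2,6 linkage preferred by CD22, was 5.60, 14.3 and 15.9 FPKM in BSM and 1.06, 1.30 and 1.74 FPKM in BMDM (-2.34 ± 0.38; adjusted p = 0.00168).

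*St6galnac4* was likewise higher in BSM, at 4.54, 2.38 and 1.96 FPKM against 0.149, 0.896 and 0.646 FPKM (log2 fold change -1.32, limma adjusted p = 0.0153). It reached the FPKM minimum in BSM replicate 1 only. Without that library, and with the tested genes held as they were, its log2 fold change was -1.05. Its highest limma adjusted p under the alternatives was 0.0475, without BMDM replicate 1. In the other direction, *St3gal1* was 4.38, 4.07 and 5.23 FPKM in BMDM and 0.0420, 0.448 and 0.337 FPKM in BSM (2.13; adjusted p = 0.000505). *St8sia4*, one of the enzymes that build polysialic acid, was 15.2, 12.1 and 18.2 FPKM in BMDM and 0.546, 1.18 and 1.86 FPKM in BSM (2.91; adjusted p = 0.000182). Of the 7 genes for the synthesis and transport of activated sialic acid, 3 were tested and *Cmas*, which forms CMP-sialic acid, was higher in BMDM (1.46; adjusted p = 0.00460), although under none of the other 3 scalings. Of the 7 genes for the removal or breakdown of sialic acid, 1 was tested and it did not pass.

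**Figure D4:**
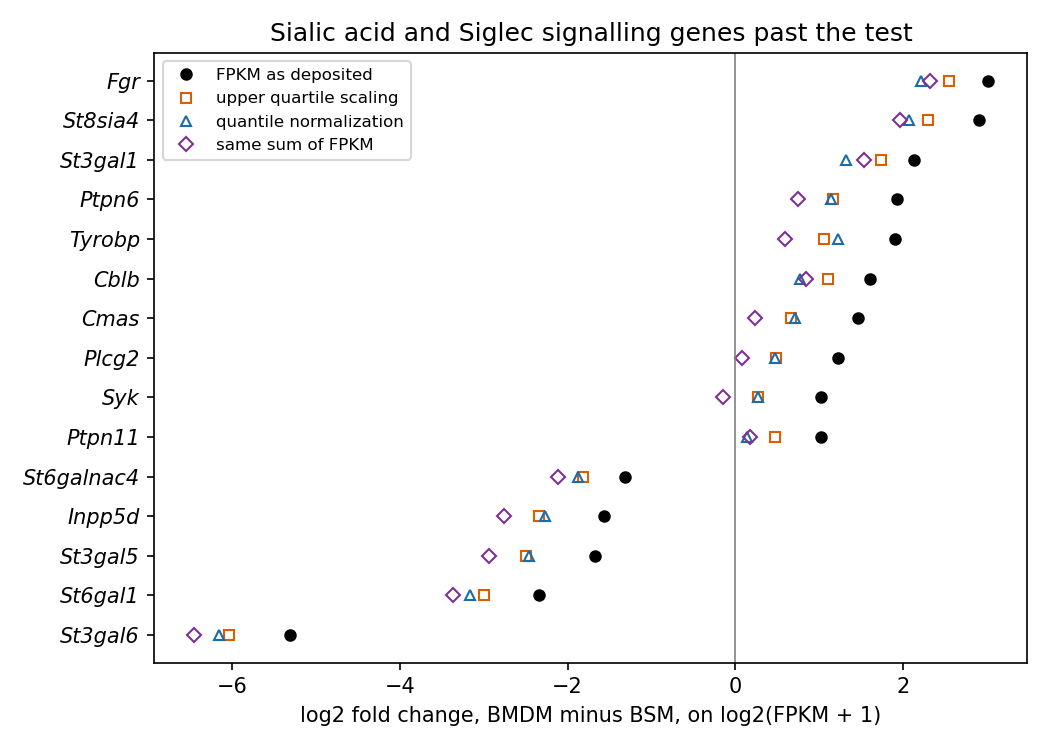
Log2 fold changes (BMDM minus BSM, horizontal axis) of 15 of the 16 listed genes that passed the test by FPKM as deposited (black circles), and under 3 other scalings of the libraries (open symbols). Every scaling moves the genes toward BSM, *Syk* crosses 0 with the same sum of FPKM, and the sialyltransferases stay on their side.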

How the data were processed

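The authors aligned the reads with TopHat (1.3.1, with Bowtie 0.12.7) and deposited 1 FPKM value per gene and library from Cufflinks (1.0.3), per the labels on build mm9. They also deposited an ALEXA-Seq expression signal for each gene on a linear scale, whose unit is not given in the sources used here. The study lists the mapped reads of each library, but neither table holds read counts per gene, so no counting interval is given and the spread over 3 libraries a group sets the precision.

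Groups came from the sample labels, which call the sets biological replicates. Log2(FPKM + 1) values of 6364 genes (FPKM of at least 3 in 1 library) were compared with limma 3.58.1 in R 4.3.3 (trended empirical Bayes, two-sided, Benjamini-Hochberg over all genes tested). ALEXA-Seq signal was treated likewise. The test was run on simulated data with normal noise and changes planted in both directions. Those data lack the shift toward BMDM seen here, so that check does not show how the test behaves under it. The Siglec genes and lists were chosen with earlier results of these data known. Named genes are the 6 Siglecs, listed genes with an FPKM of at least 3, of which those called and *Siglec5* are given (a called gene and a marker are counted in their lists but not reported here by name), and the 3 nearest profiles. Alternatives were pseudocount, FPKM minimum, scaling, trend, weights, block, female libraries and single libraries left out. File starts were read as counted from 0 (spans of 7538 genes equal GENCODE M21, against 265 if counted from 1) and are printed counted from 1. Sequences came from GENCODE M21 and RefSeq through Biopython 1.88 and blastn 2.17.0.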

Additional observations from a re-analysis of the deposited data

How the results depend on the processing

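*Siglech*, *Cd33* and *Siglece* kept their direction under every alternative tried, with log2 fold changes from -8.76 to -6.27, -3.86 to -2.60 and -2.07 to -0.74. *Siglech* and *Cd33* passed the test in each of them. Without single libraries, 2 to 3 of the Siglecs were called by FPKM, beside 2498 to 3932 of all 6364 genes. With no FPKM minimum 5 were called, beside 3876 of 21167 genes (18.3%), because *Siglecg* and *Siglec1* were then tested. *Siglecg* kept its call under all 16 alternatives (adjusted p up to 0.0329). By ALEXA-Seq, 1971 to 3984 of all genes were called without single libraries, the lowest without BMDM replicate 3, against 3050. Among the listed genes, *Syk* reversed to -0.15 with the same sum of FPKM, and 241 of 272 values of the 16 called genes and *Siglec5* kept direction and side of the threshold. Between libraries of the same replicate number, the correlations of deviations were -0.0195, -0.00836 and 0.134, and 1 of the 3 BMDM libraries correlated best with the BSM library of its own number. With 3 libraries a group, these values cannot show whether sets of the same number shared mice. With the replicate block the 3 Siglecs stayed called and 3471 genes passed in place of 3470, and *Siglec1* (adjusted p = 0.0540) and *Inpp5d* (0.0507) missed the threshold. Fits for *Siglecg*, *Siglec1*, *Cd22* and single listed genes were added after seeing the data. The tables give no reads per gene, so no counting error is given for low values.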

Other observations

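Of 26 listed genes above 0 but below the FPKM minimum, 5 (19.2%) lay higher in all BSM libraries and 5 (19.2%) higher in all BMDM libraries, against 5.47% and 19.2% of the 14803 such genes in the table. The share toward BMDM thus equalled that of all such genes. Of the 5 higher in BMDM, *St3gal4*, an alpha-2,3 sialyltransferase, was 1.24, 2.10 and 1.35 FPKM in BMDM and 0, 0.129 and 0.147 FPKM in BSM. Of the 5 higher in BSM, 2 are given here, and like *St3gal4* they were chosen after their values were seen. *Socs3*, a feedback inhibitor of cytokine signalling that can bind the tails of Siglecs, was 0.700, 0.925 and 0.752 FPKM in BSM and 0.0154, 0.0120 and 0.0219 FPKM in BMDM. *St8sia6*, an alpha-2,8 sialyltransferase, was 1.42, 2.61 and 2.72 FPKM in BSM and 0.309, 0.272 and 0.235 FPKM in BMDM, opposite to *St8sia4*.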
